A study of Mus musculus with 12 samples.

Results

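Star strands are the partners that the older miRNA names mark with a star. Of 611 mouse miRNAs on the array, 109 were taken as star strands: every entry whose name starts with mmu- and ends in a star, apart from miR-17*, miR-31* and star names that begin miR-669, miR-467, miR-466 or miR-297, which removed 6. A guide strand with the same name less the star was on the array for 98 of them, and 11 had none. The arrays detected 26 of the 109 on at least 1 of 12 arrays, and 15 entered the tests.

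The RNA came from 3T3-L1, an established mouse line of fibroblast-like preadipocytes that form fat cells when induced. Preadipocytes (n = 3) carried no stated treatment. MDI cells (n = 3), which the labels call mature adipocytes, received 3-isobutyl-1-methylxanthine, dexamethasone and insulin for 3 days, insulin alone for 2 days and plain medium for 2 days, and were taken at day 7. Lithium cells (n = 3) were preadipocytes given LiCl at 25 mM, and lithium plus MDI cells (n = 3) were lithium-treated preadipocytes that were then induced with MDI. The labels use MDI as a model of suppressed WNT signalling and lithium as a model of activated WNT signalling. An end day was found for the MDI scheme alone, so time in culture may differ between groups. Whether the 3 arrays of a group stand for 3 cultures is not stated, and the p-values cover only the spread between those arrays, which may be technical.

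A miRNA hairpin is cut by Dicer into a short duplex, and 1 strand of it is kept in an Argonaute protein while the other is mostly degraded. The kept strand is the guide and the other the passenger, or star. The choice leans on how loosely each 5′ end is paired and on the first base, and some hairpins deliver both strands in amounts that act on messenger RNAs. Because both strands leave 1 precursor, a change in transcription or processing moves both, whereas a change in strand choice or stability can move 1 of them. Bases 2 to 8 of a mature miRNA, its seed, do most of the target recognition.

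Of the 15 tested star strands, 14 matched a mature mouse miRNA in RefSeq, as did 13 of their counterparts (build GRCm38.p6); miR-199b* and the guides miR-140 and miR-34c are given by name. The sequences are shown because the results set the strands of 1 hairpin against each other, and capitals mark the seed. First come the 5 hairpins whose star was detected on all 12 arrays, with the guide under each star where it was matched.

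miR-140*: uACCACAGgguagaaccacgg

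miR-34c*: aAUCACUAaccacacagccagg

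miR-135a*: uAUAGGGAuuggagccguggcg

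miR-135a: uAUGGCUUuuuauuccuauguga

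miR-674*: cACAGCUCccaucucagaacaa

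miR-674: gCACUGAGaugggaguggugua

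miR-199a-3p, the RefSeq partner strand of miR-199b*: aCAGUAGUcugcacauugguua

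The stars miR-30a* and miR-30e* share the seed UUUCAGU and differ at 1 base, G18A, counted from the 5′ end with the base of miR-30a* first. Their guides share a seed as well.

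miR-30a*: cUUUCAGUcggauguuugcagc

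miR-30e*: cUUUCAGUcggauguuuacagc

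miR-30a: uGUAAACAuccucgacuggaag

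miR-30e: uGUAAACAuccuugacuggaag

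The let-7 stars let-7b* and let-7f*, the second of which was detected but not tested, share the seed UAUACAA and differ by C9U and C13U, with the base of let-7b* first. Whether each probe reads 1 of these near-identical strands alone was not tested.

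let-7b*: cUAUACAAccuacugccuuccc

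let-7f*: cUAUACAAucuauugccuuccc

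let-7b: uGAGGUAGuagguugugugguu

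The remaining tested stars carry seeds that no other tested star has, and each is followed by the strand that pairs with it.

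miR-29b*: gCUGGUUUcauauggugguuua

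miR-29b: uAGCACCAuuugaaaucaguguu

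miR-322*: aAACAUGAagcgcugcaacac

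miR-322: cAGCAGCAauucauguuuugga

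miR-877*: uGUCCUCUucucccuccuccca

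miR-877: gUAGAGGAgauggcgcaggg

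miR-214*: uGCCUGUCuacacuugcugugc

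miR-214: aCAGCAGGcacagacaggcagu

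miR-22*: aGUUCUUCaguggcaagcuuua

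miR-22: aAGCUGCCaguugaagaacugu

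miR-24-2*: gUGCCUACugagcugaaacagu

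miR-24: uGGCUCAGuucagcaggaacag

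miR-181a-1*: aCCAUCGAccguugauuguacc

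miR-181a: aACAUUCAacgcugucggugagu

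The tested stars did not share a first base: among the 14 with a sequence, 4 began with A, 4 with C, 2 with G and 4 with U. Of the 13 counterparts, 6 began with U, 4 with A, 2 with G and 1 with C, while 40.9% of all 1679 mature mouse sequences in the table began with U. Their GC content ran from 40.9% to 59.1% with a median of 50%, against 30.4% to 65% with a median of 45.5% in the counterparts. The stars came from the 3′ arm in 10 of the 15 tested hairpins and from the 5′ arm in 5, miR-199b*, miR-214*, miR-22*, miR-24-2* and miR-29b*.

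The hairpins lie on many chromosomes, some within the span of a RefSeq gene and others, such as those of miR-30a* and miR-674*, with no surrounding gene listed. By RefSeq, miR-140* lies at chr8:107551288-107551308 on the plus strand within Wwp2, which encodes a ubiquitin ligase. miR-34c* lies at chr9:51103044-51103065 on the minus strand, beside Mir34b. miR-877* lies at chr17:35960731-35960752 on the minus strand within Abcf1, and miR-30e* at chr4:120772618-120772639 on the minus strand within Nfyc, a subunit of the NF-Y transcription factor, beside Mir30c-1. miR-29b* lies at chr6:31063067-31063088 on the minus strand next to Mir29a, and miR-322* at chrX:53054269-53054289 on the minus strand in a cluster with Mir503, Mir542 and the Mir450 genes. The table gives gene spans, so exon and intron were not told apart.

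A miRNA was counted as detected on an array when most of the kept spots of its brightest probe were well above background. Star strands were detected less often than the other mouse miRNAs: 26 of 109 (23.9%) against 176 of 496 (35.5%) on at least 1 array. Among the 98 pairs of a star and its guide, the guide was detected for 54 (55.1%) and the star for 21 (21.4%). Both strands were seen in 18 pairs, the guide alone in 36, the star alone in 3 and neither in 41. A star was detected in 33.3% of the pairs whose guide was detected and in 6.82% of the 44 pairs whose guide was not. These are counts over related probes on shared arrays, not over independent samples, and no test was made of them.

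**Figure D1:**
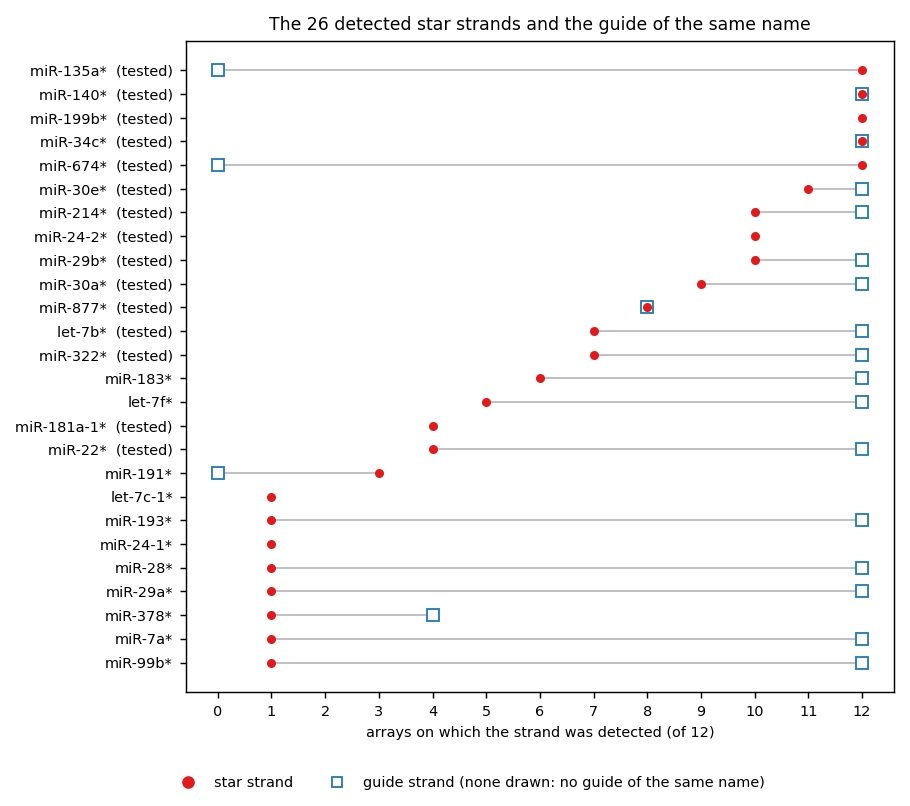
Number of arrays, of 12, on which each of the 26 detected star strands (filled red circles) and the guide of the same name (open blue squares) was detected. miR-140* and miR-34c* were on all 12 arrays with their guides, whereas miR-135a*, miR-674* and miR-191* have a guide on 0 arrays.

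Detection of 5 stars was complete. miR-135a*, miR-140*, miR-199b*, miR-34c* and miR-674* were detected on all 12 arrays. miR-30e* followed with 11 arrays, miR-214*, miR-24-2* and miR-29b* with 10, miR-30a* with 9, miR-877* with 8, let-7b* and miR-322* with 7, and miR-22* and miR-181a-1* with 4. A miRNA was tested when some group had it detected on each of its 3 arrays. let-7b* and miR-322* met that rule through the lithium arrays alone, and miR-22* and miR-181a-1* through the preadipocyte arrays alone, so any comparison of those groups starts from a group in which the star had to be present.

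The 11 detected stars that missed the rule were seen on 1 to 6 arrays, without all 3 of any group. miR-183*, partner of a sensory-organ miRNA, was detected on 6 arrays, let-7f* on 5 and miR-191* on 3. Each of the other 8 was detected on 1 array: let-7c-1* on preadipocyte array 3, miR-29a* on lithium array 1, miR-193* and miR-378* on lithium array 2, miR-28*, miR-7a* and miR-99b* on lithium plus MDI array 2, and miR-24-1* on lithium plus MDI array 3. The scanner software has a call of its own per miRNA, and it was more lenient: it named let-7f* as present on 12 arrays, miR-183* and miR-191* on 11, miR-99b* on 5 and the others on 1 to 4.

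In 3 hairpins the strand named star was the one detected. miR-135a* and miR-674* were on all 12 arrays and miR-191* on 3, while their guides miR-135a, miR-674 and miR-191 were detected on none. Signals of different probes do not measure the relative amounts of the strands. The lack of guide signal was not limited to 1 probe. Before scaling, the 2 probes of miR-135a read between -1.70 and 1.79 intensity units over the 12 arrays. The 4 probes of miR-674 read between -10.7 and 2.39, and the 4 of miR-191 between -8.30 and 5.58. The brightest probes of the stars read 20.4 to 53.5 for miR-135a*, 12.7 to 36.2 for miR-674* and 8.62 to 16.9 for miR-191*. The scanner software's own call per miRNA named miR-135a* and miR-674* as present on 12 arrays, miR-191* on 11 and the 3 guides on 0. The probes of these stars did not all read alike, since 2 of the 4 for miR-135a*, 1 of the 3 for miR-674* and 2 of the 4 for miR-191* were detected on no array. The remaining 2 for miR-191* were detected on 1 and 3 arrays.

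At the other end, 39 guides were detected on all 12 arrays, and for 23 of them the star was detected on none. These include miR-21*, let-7a*, miR-16*, miR-27a*, miR-27b*, miR-148a*, miR-10b*, miR-146b*, miR-20a* and miR-92a*. For the 16 others the star was seen on 1 array or more. A lack of signal on the array says that the strand was not well above background here, and arrays give no counting depth from which a limit could be set.

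The number of stars detected differed between arrays as the number of all miRNAs did. It was 13, 12 and 18 on the preadipocyte arrays, 12, 9 and 8 on the MDI arrays, 14, 17 and 14 on the lithium arrays and 12, 17 and 16 on the lithium plus MDI arrays. Preadipocyte array 3, with the highest count of 18, also had the highest count over all miRNAs, 177, and MDI array 3 had the lowest of both, 8 and 126. The MDI arrays reached at most the lowest count of the preadipocyte and lithium plus MDI arrays, with 3 against 3 allowing no exact permutation p below 0.10.

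Several facts of the whole set of arrays bear on the values that follow. The mesenchymal markers fixed for this line were detected 6 of 6, with 5 of them on all 12 arrays, while of 25 markers of epithelium, muscle, blood, neural tissue, liver and endothelium miR-205 and miR-128 were detected on some arrays and none on all 12. Of 11 star strands of marker hairpins on the array, miR-214* was the 1 detected, and miR-200a*, miR-200b*, miR-200c*, miR-141*, miR-133a*, miR-150*, miR-9*, miR-124*, miR-145* and miR-21* were not. The preadipocyte arrays and MDI array 1 shared slide 1, and the other 8 arrays shared slide 2, so lithium and preadipocytes cannot be told apart from the slide. A fit with the slide as a block takes its slide term from MDI array 1 against MDI arrays 2 and 3 alone. The 75th percentile by which each array was scaled was higher on the preadipocyte arrays, at 503 to 780 units, than on the other 9, at 264 to 477. Without scaling, every log2 difference from the preadipocytes is thus 0.90 lower for MDI and 0.69 lower for lithium wherever no value meets the floor. The 3 arrays with the lowest mean correlation to their own group were preadipocyte array 3, lithium array 1 and lithium plus MDI array 3. They are referred to as the arrays that stood apart. The cut was close, since lithium array 1 (0.9424) lay just below lithium plus MDI array 2 (0.9435). Each of the 3 correlated more highly on average to another group (0.957, 0.960 and 0.965) than to its own (0.939, 0.942 and 0.924). So did MDI array 1 (0.956 against 0.954). In the lithium plus MDI group this held for array 1 (0.974 against 0.959) and array 2 (0.966 against 0.944) as well. For the remaining arrays the own group was the closest.

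Values below are log2 of the scaled signal of a miRNA's brightest probe, with a floor at -4.97, where values have no order. Most tested stars lay near that floor. miR-199b* (0.41 to 1.50) and miR-140* (-2.05 to -0.56) stayed well above it on every array. Some tested stars had 1 probe detected on any array: miR-30e*, miR-34c* and miR-181a-1* of 2 probes, and miR-322*, miR-214* and miR-29b* of 4.

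**Figure D2:**
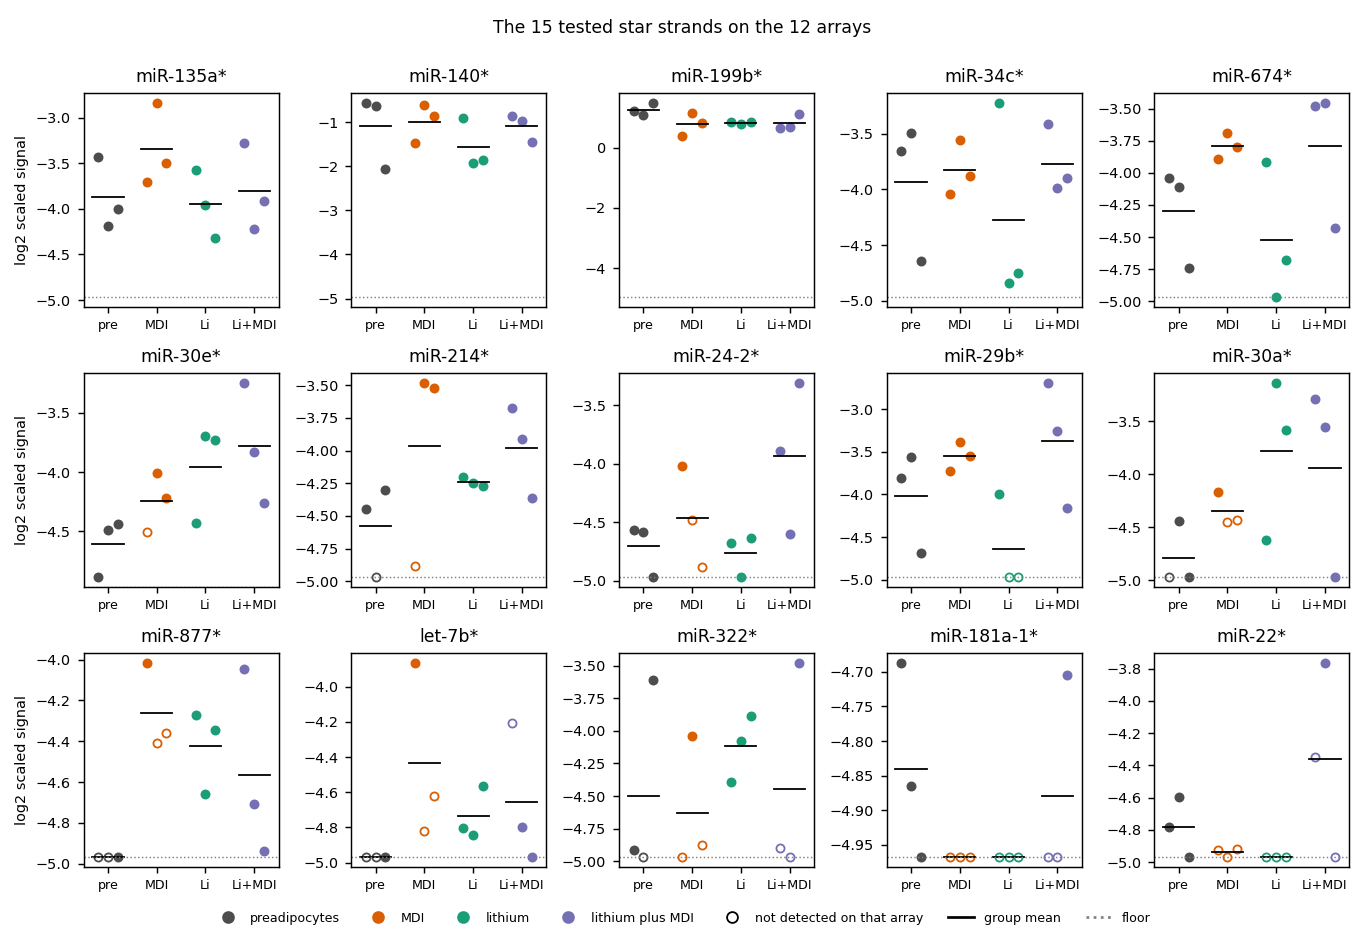
Log2 scaled signal of the 15 tested star strands on each array of the 4 groups (n = 3 each), with open circles where the strand was not detected, black lines at the group means and a dotted line at the floor of -4.97; the vertical scale differs between panels. miR-199b* and miR-140* lie clear of the floor, and several others have arrays on it.

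MDI against preadipocytes asks what induction of fat cell differentiation does. No star strand passed the threshold: 0 of 15 had a limma adjusted p under 0.05, against 5 of 157 tested miRNAs (3.18%). Unadjusted, 1 star and 28 of all tested miRNAs (17.8%) had a p under 0.05. The lowest and highest log2 differences of the stars were -0.47 and 0.71, with a median SE of 0.34. Of the 15, 11 lay higher in MDI with a median of 0.36, and 2 did without scaling, miR-877* and miR-214*, while the 157 had a median of 0.10 and 89 higher. Among the 5 stars on all arrays the median was 0.11 with 4 higher, against 0.01 for the 108 miRNAs on all arrays. The 3 arrays of each group did not overlap for 3 stars, miR-877*, let-7b* and miR-674*, all higher in MDI, and that was so for 26.8% of all tested miRNAs.

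miR-877*, from a hairpin that forms from a short intron, had the largest measured difference, though against a group at the floor. On the preadipocyte arrays it lay at -4.97 on all 3, on the MDI arrays at -4.02, -4.41 and -4.36, on the lithium arrays at -4.27, -4.66 and -4.35, and on the lithium plus MDI arrays at -4.05, -4.71 and -4.94. All MDI values exceeded all preadipocyte values, though 1 of 3 arrays was called detected in each group. The difference was 0.71 (SE 0.27, limma adjusted p = 0.166). Values at the floor have no order, so its size and rank are those of the floored values, as for let-7b*. Its 4 probes gave 0.60 to 0.71. Before scaling the signal of the brightest probe stayed between 13.9 and 20.3 units over all arrays, a 1.46-fold range, while the scaling percentile ranged 2.95-fold; without scaling the difference was 0.15. A fit that blocked on the slide gave 0.95.

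let-7b* also lay at the floor on all 3 preadipocyte arrays. It read -3.86, -4.82 and -4.62 on the MDI arrays, -4.80, -4.84 and -4.56 on the lithium arrays, and -4.20, -4.80 and -4.97 on the lithium plus MDI arrays. The MDI difference was 0.53 (SE 0.29, adjusted p = 0.343 by limma), with 4 probes between 0.34 and 0.53 that stayed between 10.6 and 20.4 units before scaling, and -0.02 without scaling. let-7b, a differentiation-linked guide, lay 0.26 lower on the same arrays (log2 difference -0.26, SE 0.28).

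miR-674*, whose guide was not detected, separated the groups without passing. It read -4.04, -4.11 and -4.74 on the preadipocyte arrays and -3.89, -3.69 and -3.80 on the MDI arrays. The difference was 0.51 (SE 0.35, limma adjusted p = 0.428), and -0.40 without scaling. On the lithium arrays it read -3.92, -4.97 and -4.68, and on the lithium plus MDI arrays -3.48, -3.45 and -4.43.

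miR-214*, partner of a miRNA encoded in the Dnm3os transcript of mesenchymal cells, had 1 detected probe of 4. Its values were -4.45, -4.97 and -4.30 in preadipocytes and -4.88, -3.48 and -3.52 in MDI, so that MDI array 1 lay with the preadipocytes. The difference of 0.61 (SE 0.36, adjusted p = 0.373, limma) turned to -0.31 when slide was a block. In that fit MDI array 1 alone links MDI to the preadipocyte slide. miR-135a* read -3.43, -4.19 and -4.00 in preadipocytes and -3.70, -2.84 and -3.49 in MDI, with a difference of 0.53 (SE 0.34) that was -0.37 without scaling. Its groups overlapped.

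miR-199b*, from a hairpin within Dnm1, had the lowest difference. It read 1.22, 1.09 and 1.50 in preadipocytes, 0.41, 1.16 and 0.83 in MDI, 0.86, 0.79 and 0.86 in lithium, and 0.66, 0.71 and 1.14 in lithium plus MDI. The MDI difference was -0.47 (SE 0.26, limma adjusted p = 0.356), and the groups overlapped through MDI array 2. It was the 1 star that passed without scaling (-1.37, adjusted p = 0.0248) and when the percentile was taken over every mouse probe (-1.28, adjusted p = 0.0115). The other stars on all arrays differed little: 0.09 for miR-140* and 0.11 for miR-34c*, each below its SE, and -0.81 and -0.79 without scaling.

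Lithium against preadipocytes compares preadipocytes with and without LiCl, which the labels use as a model of activated WNT signalling. WNT activity itself was not measured on these arrays. limma called 0 of 15 stars, against 10 of 157 tested miRNAs (6.37%), with an unadjusted p under 0.05 for 1 star and 35 of all (22.3%). Of the stars, 6 lay higher and 9 lower (median -0.08, all tested miRNAs -0.07), with 2 higher without scaling, and all 5 stars on all arrays lay lower (median -0.34, against -0.23 for the 108 miRNAs on all arrays). Groups did not overlap for 5 stars, let-7b*, miR-214*, miR-30e* and miR-877* higher and miR-199b* lower, against 29.9% of all tested miRNAs. let-7b* passed the detection rule through the lithium arrays, and its 3 preadipocyte values lay at the floor.

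miR-30a*, partner of a guide reported to promote fat cell differentiation, had the largest difference. It read -4.97, -4.44 and -4.97 on the preadipocyte arrays, -4.17, -4.45 and -4.43 on the MDI arrays, -4.62, -3.14 and -3.58 on the lithium arrays, and -3.29, -3.55 and -4.97 on the lithium plus MDI arrays. Lithium arrays 2 and 3 were the high ones, and array 1 lay below preadipocyte array 2. The difference was 1.01 (SE 0.44, limma adjusted p = 0.190). Without lithium array 1 it was 1.43 and passed (adjusted p = 0.0428). It was 0.44 without scaling and 1.28 with the slide as a block.

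miR-30e*, which shares the seed of miR-30a*, read -4.89, -4.49 and -4.44 in preadipocytes, -4.50, -4.01 and -4.22 in MDI, -4.43, -3.70 and -3.73 in lithium and -3.25, -3.83 and -4.27 in lithium plus MDI. Lithium exceeded preadipocytes on every array, by 0.65 on average (SE 0.31, adjusted p = 0.236 with limma), by 1 detected probe of 2. The difference was -0.04 without scaling. The guides lay on the same side, miR-30a at 0.91 (SE 0.30) and miR-30e at 0.24 (SE 0.33).

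The stars miR-877* and miR-214* lay 0.54 (SE 0.27) and 0.33 (SE 0.36) higher in lithium, and turned to 0.19 and -0.26 without scaling. When slide was a block they were 0.91 and -1.05. miR-214* read -4.20, -4.24 and -4.27 on the lithium arrays. miR-199b* lay at -0.43 (SE 0.26, limma adjusted p = 0.329), with all 3 lithium values below the preadipocyte ones.

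miR-29b*, partner of a guide that targets collagen messages, was at -3.81, -3.56 and -4.69 on the preadipocyte arrays and at -3.99, -4.97 and -4.97 on the lithium arrays. It was not detected on lithium arrays 2 and 3. The difference was -0.62 (SE 0.41, limma adjusted p = 0.355). miR-34c*, of a family that acts downstream of p53, read -3.65, -3.49 and -4.65 in preadipocytes and -3.22, -4.84 and -4.75 in lithium, with a difference of -0.34 (SE 0.43). miR-140*, of a hairpin known from cartilage, read -0.56, -0.62 and -2.05 in preadipocytes and -0.91, -1.92 and -1.86 in lithium, with a difference of -0.49 (SE 0.42). A block on slide took miR-140* to -1.22, miR-34c* to -0.67, miR-199b* to -1.02, miR-30e* to 0.26 and let-7b* to 1.09. These moves come from MDI array 1 against the other MDI arrays, since no lithium array shares a slide with the preadipocytes. In miR-29b*, miR-34c* and miR-140* preadipocyte array 3 was the lowest of its group and lithium array 1 the highest of its own.

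The count of stars that passed in this comparison moved with the processing. It was 5 without scaling and 6 with the percentile of every mouse probe, each of them lower in lithium, and 2 in the authors' deposited value table, miR-29b* and miR-181a-1*, both lower. It was 7 without the 3 arrays that stood apart, which were chosen for their correlations. In that setting miR-30a*, miR-30e* and miR-322* were higher, and miR-140*, miR-29b*, miR-34c* and miR-674* lower. The shift of -0.69 without scaling applies to every miRNA clear of the floor. The share of all tested miRNAs that passed in each setting is not given here, so these counts do not set the stars apart.

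By the rule on most spots, miR-22* and miR-181a-1* were not well above background on any lithium or MDI array, whereas the scanner software named miR-22* as present on 11 of the 12 arrays and miR-181a-1* on 4. miR-22* read -4.78, -4.60 and -4.97 in preadipocytes, and miR-181a-1* -4.69, -4.87 and -4.97. Both groups of these comparisons hold values at the floor, so no fold is given. limma gave adjusted p of 0.714 and 0.724 for lithium. The remaining stars miR-135a*, miR-674*, miR-24-2* and miR-322* lay between -0.22 and 0.38.

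Lithium plus MDI against lithium asks what induction does when lithium is present. limma called 0 of 15 stars and 0 of 157 tested miRNAs (0%), with an unadjusted p under 0.05 for 2 stars, miR-29b* and miR-24-2*, and 48 of all (30.6%). Of the stars, 12 lay higher with a median of 0.17, and of all tested miRNAs 112, with a median of 0.39. Of the 5 stars on all arrays 4 lay above 0.10 and miR-199b* at 0.00 (median 0.47, against 0.46 for the 108). Groups did not overlap for 1 star, miR-24-2*, against 33.8% of all tested miRNAs.

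miR-29b* had the largest difference of any star in any of these comparisons. The lithium plus MDI arrays read -2.69, -3.26 and -4.16, the lithium arrays -3.99, -4.97 and -4.97, and the MDI arrays -3.73, -3.38 and -3.55. Array 3 of lithium plus MDI lay below lithium array 1, so the groups overlapped. The difference was 1.27 (SE 0.41, limma adjusted p = 0.0788). It passed without lithium array 1 (1.60, adjusted p = 0.0406), without lithium plus MDI array 3 (1.67, adjusted p = 0.0115) and without preadipocyte array 3 (1.27, adjusted p = 0.0481). The guide miR-29b lay 0.77 higher (SE 0.41). The value of miR-29b* rests on 1 detected probe of 4.

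miR-24-2*, from the cluster of miR-23a, miR-27a and miR-24-2, read -4.67, -4.97 and -4.63 on the lithium arrays and -3.89, -4.60 and -3.31 on the lithium plus MDI arrays. The difference was 0.83 (SE 0.33, limma adjusted p = 0.135). miR-24, which other hairpins also yield, lay 1.04 higher (SE 0.36). miR-24-2* read -4.57, -4.58 and -4.97 in preadipocytes and -4.02, -4.48 and -4.88 in MDI.

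The star miR-674* lay 0.73 higher (SE 0.35, adjusted p = 0.161, limma), and 1.05 higher without lithium plus MDI array 3 (adjusted p = 0.0359). miR-22*, partner of a guide known from heart muscle, read -4.35, -3.76 and -4.97 in lithium plus MDI and at the floor in lithium. The difference of the floored values was 0.61 (SE 0.29, adjusted p = 0.161 by limma), with 1 of 3 lithium plus MDI arrays called detected. Without lithium plus MDI array 3 its difference was 0.91 and passed (adjusted p = 0.0198). Without the 3 arrays that stood apart 6 stars passed, miR-140*, miR-22*, miR-29b*, miR-34c* and miR-674* higher and miR-322* lower. Those arrays were chosen for low correlation to their own group in these same data, which narrows the spread within groups. The share of all tested miRNAs that passed in that setting is not given here.

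miR-34c* and miR-140* lay 0.50 (SE 0.43) and 0.47 (SE 0.42) higher in lithium plus MDI, which read -3.41, -3.99 and -3.90 for miR-34c* and -0.86, -0.96 and -1.45 for miR-140*. For both, the groups overlapped through lithium array 1.

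Between lithium plus MDI and MDI, which asks what lithium adds to induced cells, limma called 0 of 15 stars and 0 of 157 tested miRNAs (0%). Unadjusted, 0 stars and 6 of all (3.82%) had a p under 0.05. The star differences ran from -0.46, for miR-135a*, to 0.58, for miR-22*, with 10 higher and a median of 0.06 against 0.18 for all tested miRNAs. No star had groups that did not overlap, against 12.1% of all. No star passed under any alternative run for this comparison.

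The interaction, the MDI difference in the presence of lithium less that in its absence, tests whether lithium altered the response to MDI. limma called 0 of 15 stars and 0 of 157 (0%), with an unadjusted p under 0.05 for 1 star and 35 of all (22.3%). That star was miR-877*, at -0.85 (SE 0.38, adjusted p = 0.213), followed by miR-29b* at 0.81 (SE 0.58, limma adjusted p = 0.450) and miR-22* at 0.76 (SE 0.41, adjusted p = 0.308). All 3 preadipocyte values of miR-877* lay at the floor. Its interaction was -0.32 without scaling and ran from -1.10 to 0.29 over the alternatives. Without scaling miR-29b* (1.57, against 0.81 with scaling) and miR-674* (1.04, against 0.23) passed. In that setting the array-wide shift was -0.90 for MDI against preadipocytes and -0.03 for lithium plus MDI against lithium. It raises the interaction of every miRNA clear of the floor. Without the 3 arrays that stood apart 6 stars passed, miR-140*, miR-22*, miR-29b*, miR-34c* and miR-674* positive and miR-322* negative. The choice of those arrays narrows the spread here as well, and the shares of all tested miRNAs in these settings are not given.

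Within an array, the difference between the log2 values of the strands of a hairpin does not depend on that array's scaling, except where a value meets the floor. A shift in it shows that the strands changed unequally, not which of them changed. RefSeq names miR-29b* by locus, as miR-29b-1-5p, but its guide without a locus number. For such a pair a guide from another hairpin was not told apart. Both strands were tested for 10 star hairpins and for 16 hairpins in all when those named by arm were included. How many of the 16 had strand differences that did not overlap between groups was not counted.

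In 2 hairpins the strands followed each other closely. Over the 12 arrays miR-34c* had an SD of 0.54 and its guide 0.48 on the log2 scale, and their difference an SD of 0.16. For miR-140* the SDs were 0.54, 0.50 and 0.20. Both strands of each were detected on all 12 arrays and never met the floor. In both hairpins preadipocyte array 3 and lithium arrays 2 and 3 were low for star and guide alike, and lithium array 1 was not. The strands share an array, its scaling and a precursor, and this is a description over 12 arrays.

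The difference between strands varied more in the other 8 hairpins. It had an SD of 0.37 for miR-30a*, 0.46 for miR-214*, 0.48 for miR-22*, 0.53 for miR-877*, 0.55 for let-7b*, 0.56 for miR-29b*, 0.57 for miR-30e* and 0.70 for miR-322*. For let-7b*, miR-22* and miR-30e* it exceeded the SD of either strand alone, and for miR-30a*, miR-214* and miR-29b* it lay below both. For miR-322*, whose guide had an SD of 1.08, and for miR-877* it lay between those of the strands. The stars of 7 of these 8 met the floor on 1 to 5 arrays, where the star cannot follow its guide, and miR-30e* did not.

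**Figure D3:**
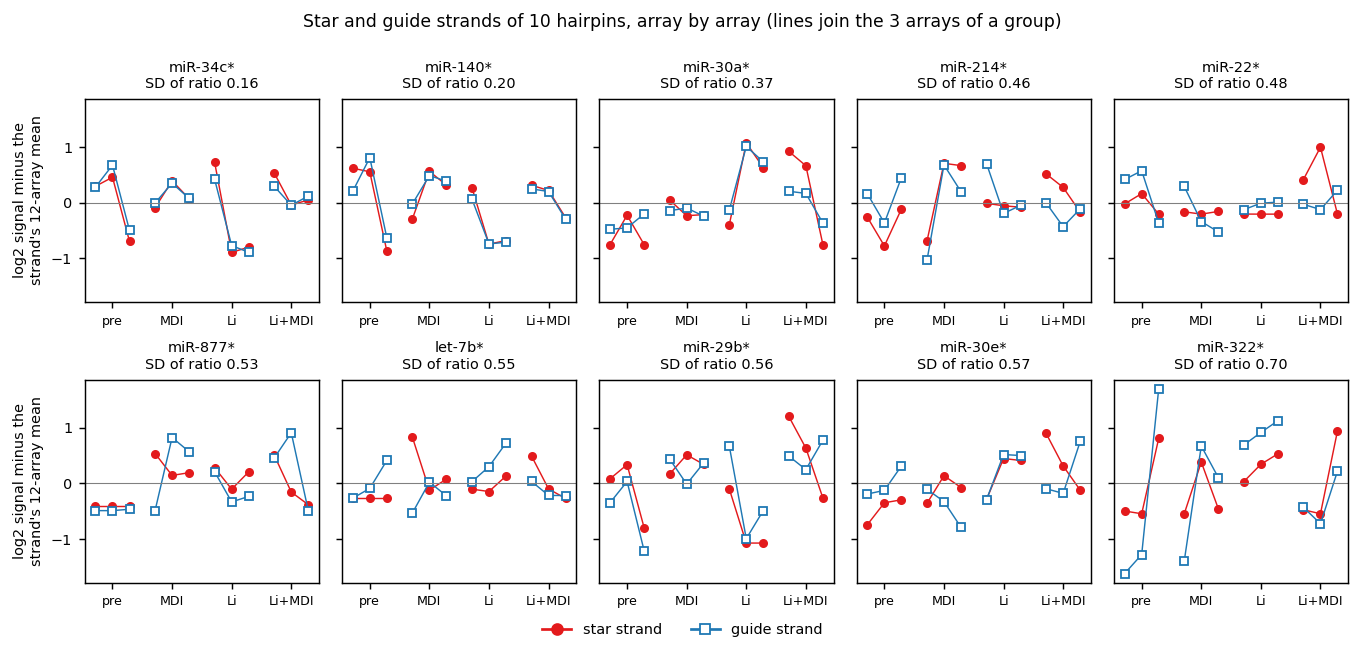
Log2 signal of the star (red circles) and the guide (blue squares) of 10 hairpins, each as its distance from its own mean over 12 arrays; lines join the 3 arrays of a group, which have no order. The strands of miR-34c and miR-140 have the smallest SD of the difference (0.16 and 0.20), and those of miR-322, whose guide has an SD of 1.08, the largest (0.70).

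MDI against preadipocytes gave no strand difference past the threshold, 0 of 10 star hairpins and 0 of 16 hairpins (0%), with an unadjusted p under 0.05 for 2 of 10 and 3 of 16 (18.8%). miR-214* lay 0.75 above its guide's change (SE 0.30, limma adjusted p = 0.198), with groups that did not overlap, which was not counted over the 16 hairpins. For let-7b* the value was 0.80 (SE 0.36, adjusted p = 0.218 by limma), and for miR-30e* 0.77 (SE 0.40, adjusted p = 0.237 by limma). When slide was a block the let-7b* value was 1.66 (adjusted p = 0.0136) and the miR-30e* value 0.21. The star and the guide had the same sign in 5 of 10 hairpins.

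When miR-181a-1* was set against miR-181a, a pairing by name less the locus number, the strand difference was 1.52 (SE 0.35, limma adjusted p = 0.00795 over 18 hairpins). The guide made that value: miR-181a fell by 1.65 on the log2 scale (adjusted p = 0.0277 in the test of single miRNAs), while the star read at the floor on all 3 MDI arrays and could not be read lower. The array also lists miR-181a-2*, so miR-181a need not come from the hairpin of miR-181a-1* alone.

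Lithium against preadipocytes gave 0 of 10 star hairpins past the threshold, against 2 of 16 hairpins (12.5%), and 1 of 10 and 5 of 16 (31.2%) at an unadjusted p under 0.05. Groups did not overlap for miR-29b* and miR-30e*, which was not counted over the 16 hairpins. The strand difference of miR-30e* was 0.41 (SE 0.40, limma adjusted p = 0.572). For miR-29b* the strand difference was -0.86 (SE 0.39, limma adjusted p = 0.155): the star lay at -0.62 and the guide at 0.24. Without lithium plus MDI array 3, which changes the shared spread but not this value, it passed (adjusted p = 0.0365), as it did in the authors' deposited value table (-2.19, adjusted p = 0.00970), and a block on slide gave -1.38. miR-322* had a value of -0.93 (SE 0.47, limma adjusted p = 0.170), which turned to 0.34 with a block on slide. The guide miR-322, which slows the cell cycle, read 2.05 on preadipocyte array 3 and below 0 on the other preadipocyte arrays (-1.28, -0.94), and without array 3 the strand difference was -1.54 and passed (adjusted p = 0.00732). miR-322* itself read -4.92, -4.97 and -3.61 in preadipocytes, -4.97, -4.04 and -4.88 in MDI, -4.39, -4.08 and -3.89 in lithium, and -4.90, -4.97 and -3.48 in lithium plus MDI. The strands had the same sign in 9 of 10 hairpins.

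For lithium plus MDI against lithium, 0 of 10 star hairpins passed, against 1 of 16 (6.25%), and the lowest adjusted p among the star hairpins was 0.294 by limma. The largest values were 0.89 for miR-322* (SE 0.47), 0.59 for miR-214* (SE 0.30) and 0.57 for let-7b* (SE 0.36). Groups did not overlap for miR-322* and let-7b*, whose stars both entered the tests through the lithium arrays alone. Such separation was not counted over the 16 hairpins. miR-29b*, at 0.50 (SE 0.39), passed without lithium plus MDI array 3 (1.03, adjusted p = 0.0354). Between lithium plus MDI and MDI, 0 of 10 and 0 of 16 (0%) passed, with values from -0.33 to 0.36. The interaction gave 0 of 10 and 0 of 16 (0%), and 0 of 10 and 3 of 16 (18.8%) at an unadjusted p under 0.05, with miR-322* at 1.22 (SE 0.66, limma adjusted p = 0.336). It passed without preadipocyte array 3 (1.82, adjusted p = 0.0188), and miR-29b* (0.80, SE 0.56) passed without lithium plus MDI array 3 (1.33, adjusted p = 0.0444).

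The hairpins with the closest strands had the narrowest intervals, as follows from the small SD of the difference by which they were picked. The MDI strand difference was 0.12 (95% confidence interval -0.41 to 0.64) for miR-34c* and -0.06 (-0.62 to 0.50) for miR-140*. The lithium values were 0.23 (-0.30 to 0.75) and 0.10 (-0.46 to 0.66).

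**Figure D4:**
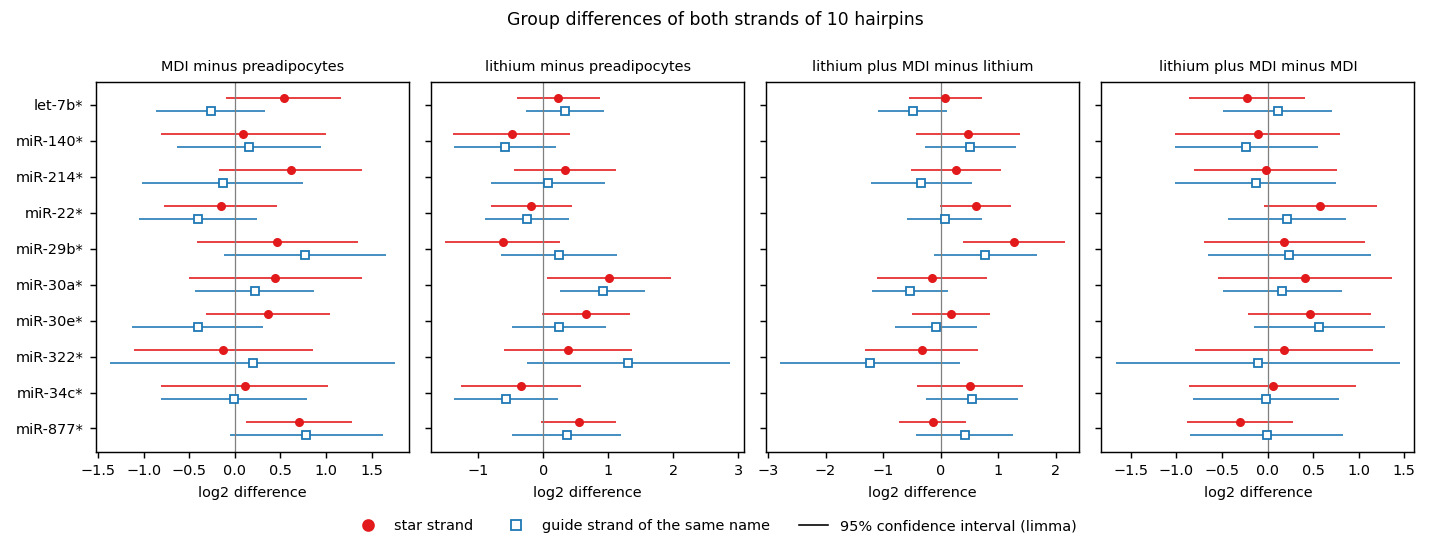
Log2 differences between groups for the star (red circles) and the guide (open blue squares) of 10 hairpins in 4 comparisons, with 95% confidence intervals from limma; the horizontal scale differs between panels. No star passed the adjusted threshold, and miR-29b* in lithium plus MDI minus lithium (1.27) is the largest star difference.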

How the data were processed

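The arrays were single-colour Agilent miRNA arrays (Cy3, 0.5 ug of total RNA each), 1 per sample. Spot intensity was deposited after background subtraction by Feature Extraction, without scaling between arrays, per the file headers, which name version 10.5.1.1; the submitters' processing notes name 9.5.3. The authors also deposited a value table, read here as log2 values because each column correlated at r of at least 0.997 with the log2 of the scanner's totals. Its column medians lay between 0.00175 and 0.0958. Its scale, centring and low-signal steps are not given in the sources used here, and it served as an alternative.

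Outlier spots were dropped, spots averaged per probe, arrays divided by the 75th percentile of 181 probes detected on all arrays, a floor set at the 5th percentile of values well above background, and log2 taken. The brightest probe stood for a miRNA. Tested were 157 miRNAs, of whose values 9.02% lay at the floor; no spot was saturated. Groups came from the titles. limma 3.58.1 (R 4.3.3) gave the differences from 4 group means over 12 arrays (two-sided moderated test, Benjamini-Hochberg over the 157, threshold 0.05), and strand differences likewise over 16 hairpins. Scripts were tested on simulated data. Figures were drawn with matplotlib 3.10.9. Every tested star was named, and every detected one listed. Alternatives changed scaling, background, floor, filter, probe rule, values, block, spread and replicates; normexp used median signals. The members and lists were chosen with earlier results of these data known.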

Additional observations from a re-analysis of the deposited data

How the results depend on the processing

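Each value was recomputed under 22 to 26 alternatives. Of 75 star differences 26 kept 1 sign throughout, and of 50 strand differences 13 did; none that passed changed sign, since none passed as reported. For MDI against preadipocytes the count of stars past the threshold was 1 when the percentile was taken over every mouse probe and 1 without scaling. For lithium against preadipocytes it was 6, 5 and 2 with that percentile, without scaling and in the authors' table. For the interaction it was 2 without scaling. Leaving out 1 array at a time gave 0 to 1 stars for lithium against preadipocytes, 0 to 3 for lithium plus MDI against lithium and 0 to 0 for the rest. Without the 3 arrays that stood apart, an alternative added after earlier results were known, the counts were 7, 6 and 6 for lithium, lithium plus MDI against lithium, and the interaction. Leaving out arrays for their low correlation to their own group narrows the spread within groups. The matching shares of all tested miRNAs are not given here, so none of these counts sets the stars apart.

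Strand differences past the threshold numbered 1 for MDI with the slide as a block and 1 with guides matched without the locus number. For lithium the number was 1 with quantile normalization, 1 without the detection filter, 1 in the authors' table, 1 with the spread from the groups compared and 1 without the 3 arrays that stood apart, as for the interaction in that setting (1). Leaving out 1 array gave 0 to 1 for lithium, for lithium plus MDI against lithium and for the interaction, and 0 to 0 otherwise. The matching counts over all hairpins in these settings are not given here, so none of these numbers sets the star hairpins apart. The causes were not tested.

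Same-numbered arrays did not deviate together (correlations from -0.48 to 0.47), so the numbers were not taken as pairs. With the replicate block, miR-29b* passed for lithium plus MDI against lithium (1 star; 1.27, limma adjusted p = 0.0449); no other star call and no star hairpin's strand call changed with the block, though 1 of all 16 hairpins then passed for MDI against preadipocytes, where 0 had.

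Signals near background limit most stars: 3 arrays a group gave a median SE of 0.34, and values at the floor hide any fall.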
